A study of Mus musculus with 3 samples.

Results

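The Ikaros family comprises 5 genes, Ikzf1 (Ikaros), Ikzf2 (Helios), Ikzf3 (Aiolos), Ikzf4 (Eos) and Ikzf5 (Pegasus), and PU.1 peaks over them were read from ChIP-seq lists of induced pro-B cells. A peak belonged to a gene when it overlapped by at least 1 bp the RefSeq span of that gene widened by 20 kb on each side. By this rule the 5 windows held 43 of the 74494 peaks in replicate 2, 6 of the 6169 peaks in replicate 3 and 33 of the 49385 intervals in the merged list. The cells were i660BM, C57BL/6 mouse pro-B cells with a doxycycline-inducible PU.1 system, kept in medium with IL-7. Both PU.1 libraries, numbered 2 and 3 in their titles, came from cells given doxycycline (70 ng/ml, over 24 h) to induce PU.1 and used a rabbit polyclonal PU.1 antibody. An input DNA sample has no peak list here, and uninduced chromatin was not analysed here, so binding that depends on the induction cannot be told apart from binding that does not. All samples share 1 cell line, and nothing in the labels says that the PU.1 libraries came from separate cultures.

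Ikaros family proteins are zinc finger factors. A group of fingers near the amino end binds DNA, and a pair near the carboxyl end joins family members into homodimers and heterodimers. Ikaros is required for lymphocyte development and acts at the pro-B to pre-B transition, where Aiolos is induced. Helios and Eos are best known from T cells, regulatory T cells in particular, and Pegasus is the most divergent member. PU.1, encoded by Spi1, is an ETS factor that recognises a GGAA core. Because ChIP measures occupancy, the pro-B identity of the cells and the expression of the 5 genes were not checked against marker transcripts.

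Ikzf1 is annotated on chromosome 11, 11684962 to 11772930 (88.0 kb), Ikzf3 on the same chromosome, 98464610 to 98546031 (81.4 kb), and Ikzf2 on chromosome 1, 69531207 to 69687351 (156 kb). Ikzf4 is annotated on chromosome 10, 128630839 to 128669671 (38.8 kb), and Ikzf5 on chromosome 7, 131388649 to 131410518 (21.9 kb). All coordinates are 1-based on GRCm38 (mm10). The annotation used gives a span without exons, so exonic and intronic peaks were not separated. Strand and start sites were known for Ikzf1 and Ikzf5 from the RefSeq promoter table (GRCm38.p6), which matched 2 of the 5 genes. For Ikzf2, Ikzf3 and Ikzf4 the ends are called lower and higher by coordinate.

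The promoter table holds 2 start sites of Ikzf1, 4.25 kb apart, and each start lay under a replicate 2 peak, whereas the start site of Ikzf5 lay under none. The 250 bases before each start are shown because they contrast a covered pair of starts with an uncovered one. They read 5′ to 3′ on the gene's strand, with capitals marking GGAA or its complement TTCC.
Ikzf1, first start (chr11:11685675-11685924, + strand): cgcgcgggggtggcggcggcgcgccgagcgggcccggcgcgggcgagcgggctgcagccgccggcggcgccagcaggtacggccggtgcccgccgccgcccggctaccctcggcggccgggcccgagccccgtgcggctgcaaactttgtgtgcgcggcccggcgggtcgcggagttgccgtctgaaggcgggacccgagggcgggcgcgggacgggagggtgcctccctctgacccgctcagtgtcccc
Ikzf1, second start (chr11:11689927-11690176, + strand): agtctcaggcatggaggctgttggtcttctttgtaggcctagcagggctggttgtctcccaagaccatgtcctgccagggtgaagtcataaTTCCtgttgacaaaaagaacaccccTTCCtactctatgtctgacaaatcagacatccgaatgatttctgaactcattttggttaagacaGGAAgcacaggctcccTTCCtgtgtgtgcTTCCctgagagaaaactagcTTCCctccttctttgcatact
Ikzf5 (chr7:131410479-131410728, - strand): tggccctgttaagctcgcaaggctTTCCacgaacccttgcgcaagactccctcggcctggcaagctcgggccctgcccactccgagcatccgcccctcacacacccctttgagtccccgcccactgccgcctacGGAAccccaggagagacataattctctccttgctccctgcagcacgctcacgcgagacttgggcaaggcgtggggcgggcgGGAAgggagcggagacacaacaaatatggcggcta

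The sequence before the first Ikzf1 start was 82% G or C and held no GGAA on either strand, as did 6.55% of the 32851 RefSeq promoters cut to the same length. The sequence before the second start was 47.6% G or C and held 6 matches, and 8.69% of promoters held 6 or more. Before the Ikzf5 start, in sequence of 64% G or C, there were 3 matches, the median of all promoters. The longer PU.1-like words GAGGAA and GAGGAAGT, the composite ETS-IRF element and the Ikaros-like word TGGGAA were absent from all 3 sequences, on both strands. Among all promoters these words were present in 23.3%, 2.44%, 2.30% and 21.6%. GGAA lies within each of them, so the counts overlap. A match describes letters and is not a bound site.

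The members fell into a group of 3 with many peaks and a pair with almost none. Ikzf1 had 20 replicate 2 peaks, 3 replicate 3 peaks and 16 merged intervals. Ikzf3 had 13, 2 and 11, and Ikzf4 had 9, 1 and 6. Ikzf5 had a single replicate 2 peak, and Ikzf2 had no peak in any of the lists. A replicate 2 peak was thus present at 4 of 5 members, against 84.6% of 21779 protein-coding genes under the same rule. A replicate 3 peak was present at 3 of 5 members, against 24.2% of protein-coding genes. Merged intervals were present at 3 of 5 members, against 76.5%. With 5 genes chosen by family and 2 libraries of a single condition, the design gives no test of these shares.

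**Figure D1:**
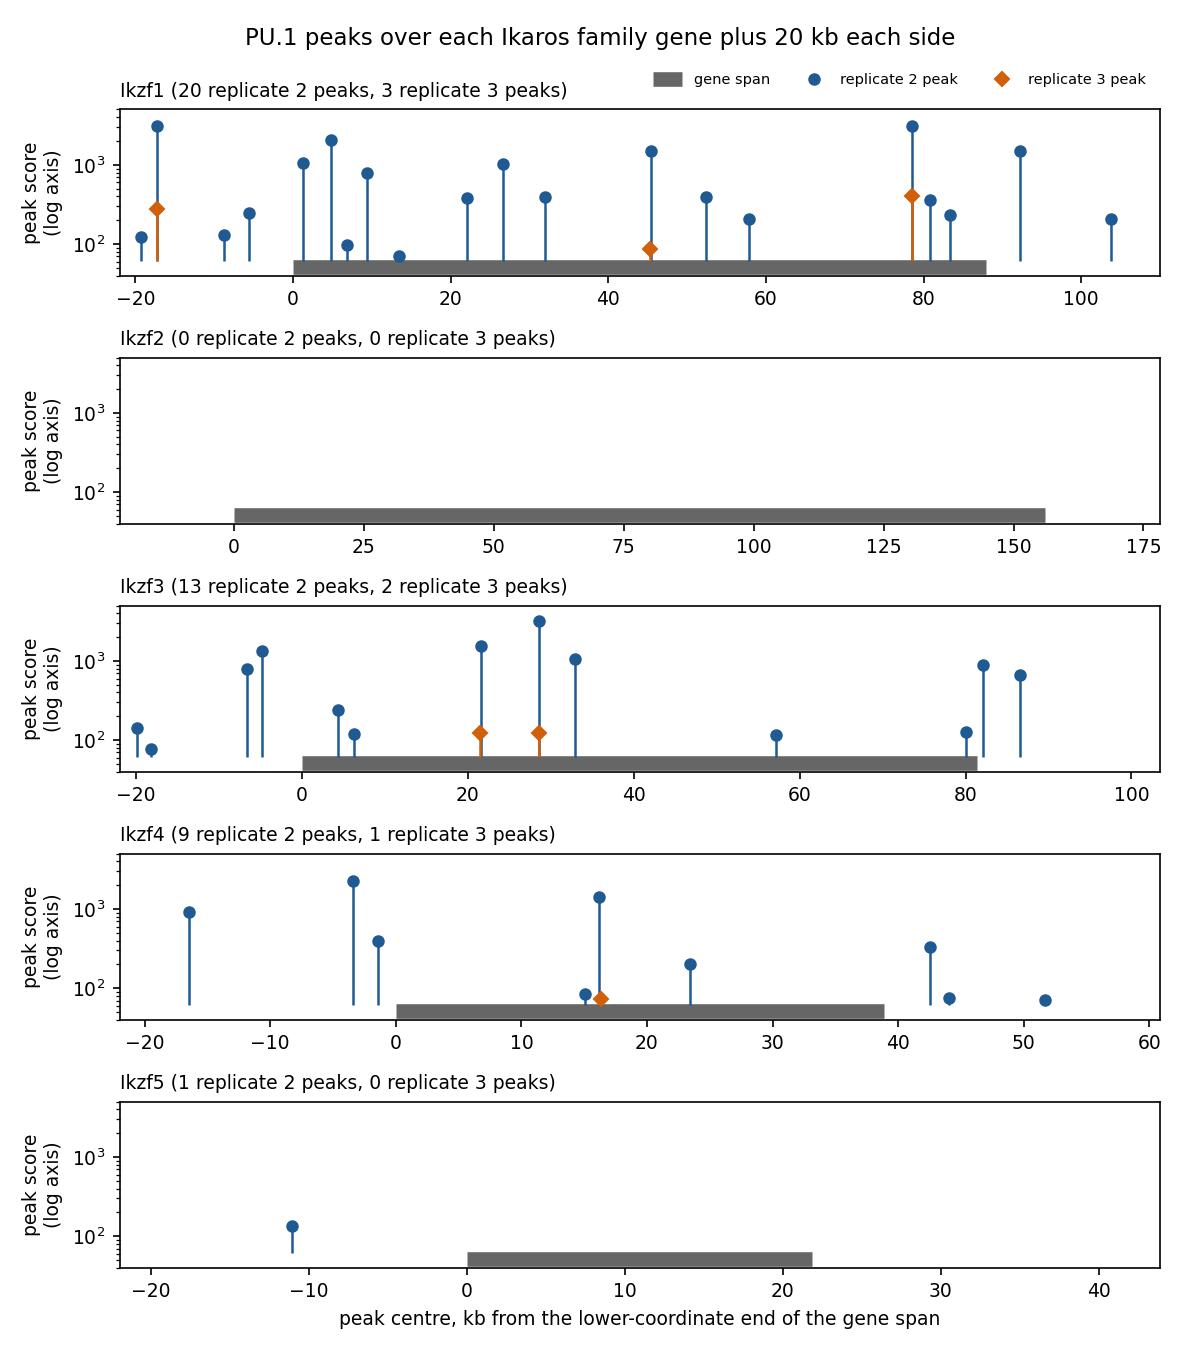
Peak score (log axis) against the position of the peak centre in kb from the lower-coordinate end of each gene span, with replicate 2 peaks as circles, replicate 3 peaks as diamonds and the span as a grey bar. Ikzf1, Ikzf3 and Ikzf4 carry 20, 13 and 9 replicate 2 peaks, Ikzf5 carries 1 outside its span, and the Ikzf2 panel is empty.

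Window length differed between the genes, at 128 kb for Ikzf1, 196 kb for Ikzf2, 121 kb for Ikzf3, 78.8 kb for Ikzf4 and 61.9 kb for Ikzf5. Per 100 kb of window, replicate 2 peaks numbered 15.6 at Ikzf1, 11.4 at Ikzf4, 10.7 at Ikzf3, 1.62 at Ikzf5 and 0 at Ikzf2, against a median of 4.08 over all protein-coding genes. These densities stand at the 98.1, 92.9, 91.1, 22.4 and 7.68 percentiles of protein-coding genes. Ikzf3 was ahead of Ikzf4 in number of peaks and behind it per length, so their order rests on the measure. In replicate 3 the densities were 2.34, 1.65 and 1.27 per 100 kb at Ikzf1, Ikzf3 and Ikzf4 (percentiles 95.7, 87.4 and 83.6). Replicate 2 peaks covered 20.3% of the Ikzf1 window, 15.6% of the Ikzf4 window and 15.2% of the Ikzf3 window, against a median of 4.33% over all genes. At least 20 replicate 2 peaks, the number of Ikzf1, were found at 0.647% of protein-coding genes, at least 13 at 2.51% and at least 9 at 7.59%. At least 3 replicate 3 peaks were found at 1.5% of them and at least 2 at 5.9%.

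**Figure D2:**
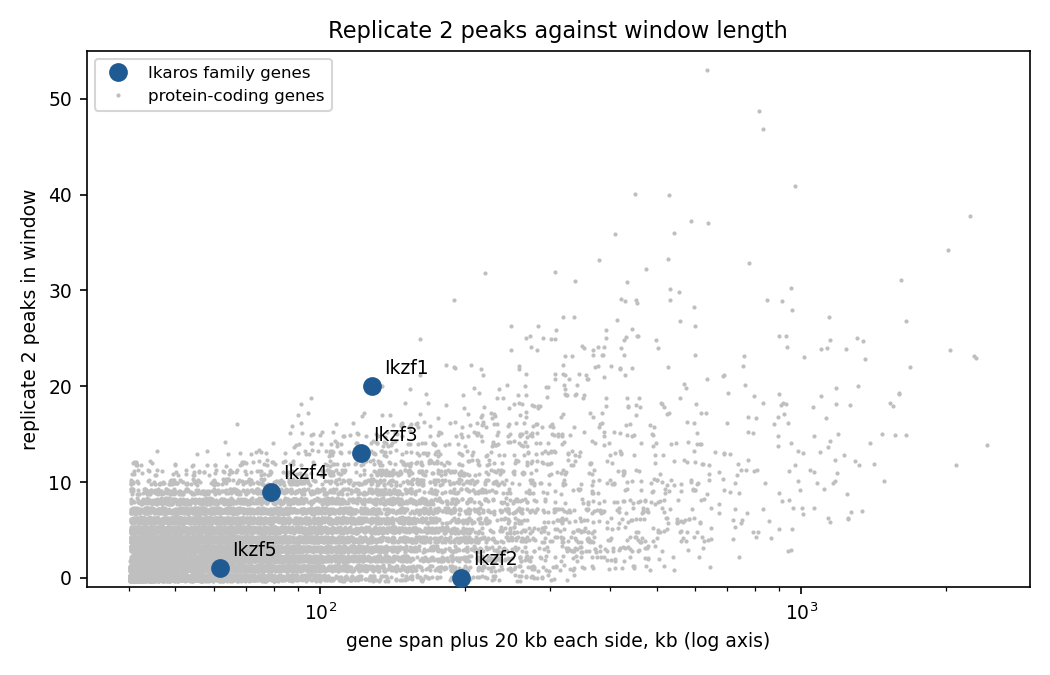
Number of replicate 2 peaks in the span plus 20 kb each side against the length of that window in kb (log axis), with the Ikaros family genes as large points and protein-coding genes as small grey points, jittered vertically. Ikzf1 sits high for its 128 kb, whereas Ikzf2 sits at 0 with the longest window of the family, 196 kb.

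Ikzf1 had the most peaks of the family, and its 2 strongest, both scored 3100 in replicate 2, lay away from both start sites. The score in each list is the authors' peak caller's own value, taken as -10 log10(p) from the MACS version named, and it ranks peaks only within its list. The lowest scores are 70.0 in both lists. In replicate 2, 2431 peaks are tied at exactly 3100, and 2656 score 3100 or more, up to 3233. A peak inside the gene, centred 77.6 kb after the first start (chromosome 11, 11762749 to 11764254), scored 3100 in replicate 2. Its partner in replicate 3 (11762963 to 11764081) scored 409, at the 90.6 percentile of that list and the highest replicate 3 score of any member. A peak centred 18.2 kb before the first start (11667163 to 11668240) also scored 3100 in replicate 2, and its partner (11667185 to 11668279) scored 278 in replicate 3, at the 81.4 percentile. Both therefore ranked high in each library.

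The third Ikzf1 site found in both libraries lay inside the gene, 44.5 kb after the first start (11729759 to 11731036). It scored 1487 in replicate 2, and its replicate 3 partner scored 86.0, at the 18.4 percentile and near the lowest value of that list. The peak over the second start (11688606 to 11690857, 2252 bp wide) scored 2079 in replicate 2 and had no replicate 3 peak. A 2033 bp peak over the first start (11685212 to 11687244) scored 1057, also without a replicate 3 peak. That peak also covers the start of Gm11999, a long non-coding RNA gene read from the opposite strand. The span of Gm11999 (11642203 to 11685635) holds the site 18.2 kb before the first start and the other replicate 2 peaks below the Ikzf1 span. A further replicate 2 peak, 2.95 kb past the far end of the span (11775883 to 11778411), scored 1485. The other 14 replicate 2 peaks scored from 70.1 to 1019, with a median of 237, and none had a replicate 3 peak. Of all 20, 14 lay inside the span, and the longest stretch between neighbouring peaks was 19.4 kb.

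Ikzf3 had 2 sites found in both libraries, with replicate 3 scores near the middle of that list. A 4122 bp peak inside the gene (chromosome 11, 98491183 to 98495304) scored 3216 in replicate 2 and was wider than 99.9% of that list. Its score is not ordered against the 3100 of the Ikzf1 peaks, since its percentile was 99.97 as deposited and 96.7 with scores of exactly 3100 placed first, against 98.1 and 98.4 for those at Ikzf1. The replicate 3 peak within it (98492680 to 98493625) was 946 bp wide, filled 23.0% of its length and scored 122, at the 42.8 percentile. The merged list divides this stretch into intervals of 1221 and 2428 bp, and the replicate 3 peak lies in the longer. Nearer the lower end (98485637 to 98486701), a replicate 2 peak scored 1529.5 and its replicate 3 partner scored 123 (43.7 percentile). The 2 sites thus differed widely in replicate 2 score and had nearly equal replicate 3 scores.

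At the higher end of Ikzf3, a 2490 bp replicate 2 peak (98545516 to 98548005) lay across the end of the span and scored 881, and a smaller peak 0.957 kb inside that end scored 126. Neither had a replicate 3 peak. Other strong replicate 2 peaks lay 3.79 kb beyond the lower end (98458841 to 98460823, score 1341) and inside the gene (98497052 to 98498068, score 1058). The remaining 7 scored from 78.5 to 783, with a median of 145. Some fell on neighbours that share the window. A peak scored 672 covered the start of Zpbp2, a gene of sperm development, and 3 peaks scored from 78.5 to 783 overlapped Mien1. No peak overlapped Grb7, an adaptor protein gene in the same window.

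At Ikzf4 the strongest peak belonged to a neighbour by position. It lay 1.99 kb below the lower end (chromosome 10, 128626028 to 128628849, 2822 bp wide), covered the start of the ribosomal protein gene Rps26 and scored 2260.2 in replicate 2, with no replicate 3 peak. The site found in both libraries lay inside Ikzf4 (128646392 to 128647658), where the score was 1409 in replicate 2. Its replicate 3 partner scored 72.2, at the 2.46 percentile. That site also lies inside Gm26876, a long non-coding RNA gene within Ikzf4, whose own start lay under a weaker neighbouring peak, scored 83.7. The remaining 6 replicate 2 peaks were a peak of 921 at 15.5 kb below the gene, of 392 at 0.882 kb below it, of 202 inside it and of 327, 74.5 and 70.4 beyond its higher end. The peak of 327 covered the start of Suox, the sulphite oxidase gene, and that of 70.4 lay in Rab5b, a gene of endosome traffic. Peaks inside the Ikzf4 span were therefore 3 of 9.

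Ikzf5 had 1 peak, scored 136 in replicate 2 (chromosome 7, 131377257 to 131377926). It lay 10.7 kb below the lower end, inside the neighbouring gene Pstk, and in neither replicate 3 nor the merged list. The Ikzf5 start and that of Acadsb, an enzyme gene of fatty acid breakdown read the other way, lie close together, and no peak of either library covered them. The next replicate 2 peak above the gene was 58.6 kb away and scored 518.

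Around Ikzf2 the nearest replicate 2 peaks were 295 kb below the span (chromosome 1, 69235791 to 69236530, score 126) and 82.5 kb above it (69769899 to 69770775, score 94.8). The stretch between them measured 533 kb, against a median of 14.7 kb between neighbouring replicate 2 peaks, and 116 of 74473 such stretches were as long or longer. In replicate 3, where peaks are sparse, the empty stretch was 903 kb, against a median of 154 kb. Of the 1375 protein-coding genes with a window at least as long as that of Ikzf2, 2.76% had no replicate 2 peak, 7.93% had no merged interval and 56.1% had no replicate 3 peak. Peak names are numbered without a break in all 3 lists, which cannot show whether peaks were removed before numbering. The reason for the empty stretch at Ikzf2 was not tested.

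Of the member peaks in replicate 2, 6 of 43 had a partner in replicate 3 (14.0%, with an exact 95% interval of 5.30 to 27.9), against 8.24% (8.04 to 8.44) of all replicate 2 peaks. The interval covers counting error only, treats the peaks as independent and includes the share of the whole list. The overlaps followed the replicate 2 score. Of the 5 member peaks in the top 10% of replicate 2 scores, 3 had a replicate 3 peak, against 72.8% of all such peaks, and the 2 without were those over the second Ikzf1 start and the Rps26 start. Between the 80 and 90 percentiles 3 of 10 had one, against 9.19%. Between the 50 and 80 percentiles 0 of 11 member peaks had one, against 0.134%, and below the median 0 of 17, against 0.00805%. Across the 6 pairs, from the same 2 libraries, the scores had a Spearman correlation of 0.64, given as a description. It was 0.93 when scores of exactly 3100 were placed above all others, an ordering chosen for the pairs after the data were seen.

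**Figure D3:**
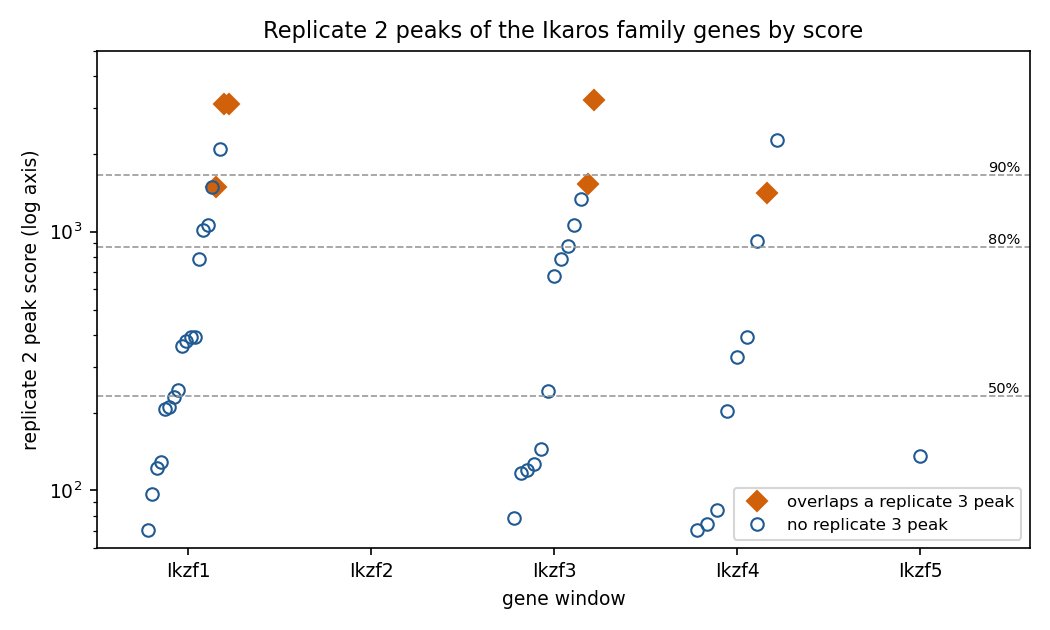
Replicate 2 score (log axis) of each member peak by gene, with filled diamonds for peaks that overlap a replicate 3 peak, open circles for those that do not, and dashed lines at the 50, 80 and 90 percentiles of all replicate 2 scores. The 6 paired peaks all score at least 1409, and Ikzf2 has no point.

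Peaks at the ends of the member genes came from replicate 2 and the merged list. A replicate 2 peak lay within 1 kb of an end of the span at 3 of 5 members, Ikzf1, Ikzf3 and Ikzf4, against 44.0% of protein-coding genes. The same 3 genes had a merged interval there, against 37.1%. A replicate 3 peak lay there at 0 of 5, against 4.31%, and at 0 of 5 within 5 kb, against 8.99%. No shared region, the union of a replicate 2 peak and its replicate 3 partner, lay within 1 kb of an end of any member, against 4.63% of protein-coding genes. With such low background shares, 0 of 5 does not set the members apart. The RefSeq promoter table held 11 promoter windows inside the 5 windows, with none for Ikzf2, Ikzf3, Ikzf4 or the neighbour Grb7. Of these 11, 7 overlapped a replicate 2 peak (27.5% of all promoter windows did) and 0 a replicate 3 peak (2.23% did). The starts of Gm11999 and the first Ikzf1 start share 1 of those replicate 2 peaks, so the 7 are not separate sites. Of the 6 paired sites, 5 were inside a member's span and the sixth lay before Ikzf1, inside Gm11999. Among all 43 member replicate 2 peaks 24 were inside a span, and a preference of paired sites for spans was not tested. Replicate 3 holds far fewer peaks than replicate 2, and the part of that difference in these counts was not tested.

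A merged interval overlapped 32 of the 43 member replicate 2 peaks (74.4%, exact 95% interval 58.8 to 86.5), against 66.5% of all. The interval covers counting error only and treats the peaks as independent. The 11 without a merged interval scored at most 136, and the lowest score with one was 117. Of all replicate 2 peaks, 33.1% below the median score and 99.8% between the 50 and 80 percentiles overlapped one. Among member peaks 6 of 17 and 11 of 11 did. All 6 sites with a replicate 3 peak overlapped a merged interval. Their replicate 2 scores lay above the 80 percentile. Of all replicate 2 peaks, 99.96% between the 80 and 90 percentiles and 99.99% above the 90 percentile overlapped one.

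Just outside the windows, the nearest replicate 2 peak to Ikzf1 was 25.4 kb below the span, scored 1692 and had a replicate 3 peak scored 86.4 at the same place. At Ikzf3, Ikzf4 and Ikzf5 the nearest replicate 2 peaks outside were 23.0 to 25.4 kb from the span, with scores of 152, 246 and 81.7. The peak farthest out inside the windows of Ikzf1 and Ikzf3 lay 18.8 and 19.4 kb from the span, with scores of 123 and 145.

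Other protein-coding genes with the same number of peaks in both libraries were named by the closeness of their mean best-score percentile, a measure over 2 libraries. Ikzf1 had 2 such genes, Ipcef1 and Uvrag, whose mean percentiles differed from the 94.3 of Ikzf1 by 1.48 and 8.41 points. Ikzf3 had 33, the closest being Bicra, Gbf1 and Pik3r5, with differences of 0.423 to 1.49 points. Ikzf4 had 154, the closest being Acss1, Slc2a13 and Ston2, with differences of 0.269 to 0.584 points. At Ikzf3 and Ikzf4 the best peaks of the 2 libraries were different sites, and the best replicate 2 peak at Ikzf4 covers the Rps26 start. The match is therefore one of numbers, and likeness of single sites was not compared.

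Partners and reported targets of the Ikaros family were described with the same windows. Shared regions were present at 3 of 5 family members and at 10 of 20 genes reported as bound or controlled by Ikaros or Aiolos in B cell precursors, against 24.3% of protein-coding genes. Ebf1, which commits progenitors to the B lineage, had 29 replicate 2 and 3 replicate 3 peaks, with a best replicate 3 score of 1061. Syk, a kinase of pre-BCR and BCR signalling, had 11 and 3 (best 829). Igll1 and Vpreb1, which encode the surrogate light chain, had 7 and 6 replicate 2 peaks and a best replicate 3 score of 582 from 1 shared region that lies in both windows, so that this site counts for 2 of the 10 genes. Targets without a replicate 3 peak included the recombinase genes Rag1 and Rag2, with 1 and 2 replicate 2 peaks, and Myc and Foxo1, with 7 each. Vpreb2 had none. The median of this list was 13.2 replicate 2 peaks per 100 kb, against 4.08 over all protein-coding genes.

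Subunits of the NuRD complex and of other corepressors, through which Ikaros proteins can repress transcription, had a shared region at 7 of 17 genes. The share of all protein-coding genes with one was 24.3%. The highest replicate 3 scores were those of Hdac2 (548), Gatad2a (329), Gatad2b (208) and Mbd3 (153). Chd4, the NuRD remodelling ATPase that binds Ikaros, had 6 replicate 2 peaks with a best score of 508 and no replicate 3 peak. The cereblon ubiquitin ligase degrades Ikaros and Aiolos in human cells treated with lenalidomide. Its genes had a shared region at 1 of 5, Crbn (85.3 in replicate 3), against the same 24.3% of protein-coding genes. Medians over the NuRD and cereblon lists were 5.92 and 5.99 replicate 2 peaks per 100 kb, against 4.08 over all protein-coding genes. Gene length was not adjusted for in the shares of genes with a peak.

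**Figure D4:**
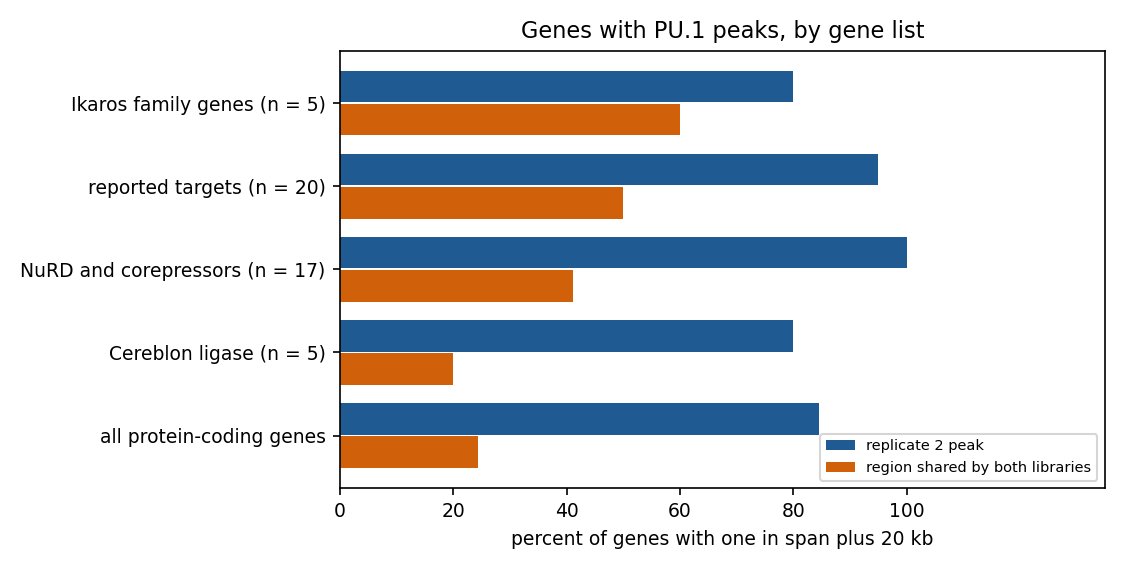
Percent of genes with a replicate 2 peak (upper bar) or a region shared by both libraries (lower bar) in the span plus 20 kb each side, for the Ikaros family, 3 lists of targets and partners and all protein-coding genes. Shared regions stand at 60%, 50%, 41.2% and 20% of the lists, against 24.3% of all protein-coding genes, and replicate 2 peaks at 80% to 100%, against 84.6%.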

How the data were processed

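Reads were handled with Trim Galore, Bowtie and MACS 1.4.1 on mm10, per the submitters' processing notes. The authors deposited a peak list per PU.1 library, with a score per peak, and a merged list whose score is 0 in every row and whose making the sources do not state. They do not state read depth or the use of the input as control either, so the precision of single scores is unknown. Spans came from RefSeq (GRCm38.p6). From these, 108 protein-coding genes placed before 3 Mb on chromosomes 1 to 19 or X were left out. Such positions were taken as scaffold coordinates, which the table does not state, and no list has a peak there. Peaks overlapping by 1 bp were paired, and shared regions are merged pairs. Percentiles give ties their mid rank. Shares carry exact Clopper-Pearson 95% intervals. Named peaks are all those of windows with up to 10. Elsewhere they are those with a replicate 3 partner, the 5 best of replicate 2 and those within 1 kb of an end, and up to 4 genes were named per list by replicate 3 score. Other list genes, and neighbours in the text, were chosen after their values were seen. Members and lists were chosen with earlier results of these data known. No significance test was run. Overlap code was tested on simulated intervals. Python 3.11.15, pandas 2.3.3 and SciPy 1.17.1 were used.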

Additional observations from a re-analysis of the deposited data

How the results depend on the processing

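No paired analysis was possible because both PU.1 libraries belong to a single group. The 43 replicate 2 peaks became 25 on the spans alone and 65 with 50 kb each side. They became 5 when the best 6169 peaks of replicate 2 were kept. Of these 5, the Ikzf1 window held 3 and the Ikzf3 and Ikzf4 windows 1 each. The peak left in the Ikzf4 window was that over the Rps26 start, outside the Ikzf4 span. Ikzf2 stayed at 0 in every setting. Against the 6 shared regions, replicate 2 alone gave 43, the merged list gave 33 and replicate 3 alone gave 6. No member had a shared region within 1 kb of an end, whereas 3 had a replicate 2 peak and 3 a merged interval there. Of the 17 NuRD and corepressor genes, the 7 with a shared region became 4 with 5 kb each side and 2 on the spans alone. Shares of all protein-coding genes are not given here for those widths. With replicate 2 alone or the merged list the NuRD and corepressor count was 17 of 17, against 84.6% and 76.5% of protein-coding genes. It was 7 with replicate 3 alone. For the cereblon ligase the count of 1 of 5 became 0 on the spans alone, with 5 kb each side or with scores of at least 100. It became 4 of 5 with replicate 2 alone or the merged list, against the same 84.6% and 76.5%, and stayed at 1 with replicate 3 alone. For reported targets the 10 of 20 became 19 of 20 with replicate 2 alone or the merged list, against those same shares. The count stayed at 10 with replicate 3 alone. Replicate 3 alone and shared regions are nearly the same measure, at 24.2% and 24.3% of protein-coding genes. The unchanged counts with replicate 3 alone are therefore no separate check. These settings changed the windows, the lists or the score cut, and what set the size of each shift was not tested. With scores of at least 100, Ikzf4 lost its replicate 3 peak, leaving 2 of 5 members with one, and Ikzf1 lost 1 of 3. Shares of all protein-coding genes at that score cut are not given here, so these losses are not set against genes in general. With 50% reciprocal overlap 5 shared regions were left, the wide Ikzf3 peak no longer being paired. In other settings the family and list totals stayed within 1.5 times. Tied scores of exactly 3100 limit ranks at the top of replicate 2. Placing them first moved the correlation of paired scores to 0.93, against 0.64 as deposited.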
